A study of Mus musculus with 6 samples.

Results

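The cytosolic ribosomal protein genes are the nuclear genes whose protein products, together with ribosomal RNA, make up the ribosome of the cytoplasm. They were taken as the protein-coding genes with a symbol of Rpl or Rps followed by a number, with Rpsa, Rplp0, Rplp1 and Rplp2 added, and without pseudogenes, the S6 kinases and Rpl10l. By this rule 85 of the 55401 genes in the count table were members, and 83 of them were among the 17325 genes with enough counts to be tested. The members were 46 genes of the large subunit, 31 of the small subunit and 8 paralogs or other genes with such a symbol. They lay on 19 chromosomes. In 6 libraries, RNA of wild-type (WT) V6.5 mouse embryonic stem cells was compared with RNA of V6.5 cells that lack both copies of Cdh1 (Cdh1-/-, here the knockout), with 3 libraries each, named A, B and C. Cdh1 encodes E-cadherin, which joins neighbouring cells. No treatment was named for either genotype. The labels do not say whether the libraries of a genotype came from separate cultures, nor how many clones the knockout stands for, so p-values measure the spread between these libraries only.

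Ribosomal proteins are made in near-equal numbers, because each mature ribosome holds about the same copy number of nearly all of them. In vertebrates their mRNAs begin with a run of pyrimidines, the TOP motif, through which mTOR signalling and the protein LARP1 control their translation together. Embryonic stem cells divide fast, and transcripts of ribosomal protein genes are among the most abundant in such cells. A few members have a paralog that is used in certain tissues, and when ribosome assembly is disturbed free RPL5 and RPL11 bind MDM2, the ubiquitin ligase of p53.

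The libraries held between 18020719 and 23381942 counts. Levels are CPM, counts divided by the library size after TMM scaling, log2 changes are log2 fold changes of knockout over WT with their standard error (SE), and called genes had an adjusted p under 0.05 in edgeR's quasi-likelihood test. Cdh1 itself fell from 559 ± 19.1 CPM to 173 ± 9.05 CPM (SD, n = 3 each; log2 change -1.70, adjusted p 2.9e-08), which fits the labels, although counts summed over all exons do not show which part of the transcript was left. All 10 stem cell markers were tested, and Tdgf1 and Fgf4 rose while the other 8 were not called. Fgf4 lost its call when WT library A (adjusted p 0.133), WT library B (0.155), knockout library B (0.0982) or knockout library C (0.102) was left out. The 10 endoderm markers were all called higher, beside 7.60% of all tested genes. Their summed levels were 471 to 615 CPM in WT and 1117 to 2069 CPM in the knockout. Knockout library C was the highest of the libraries in that sum. The part of these markers in the results below was not tested. Of 10 markers of fibroblast feeder cells 6 were tested and 1, Col1a1, fell (16.7% called, beside 13.3% of all tested genes). Summed levels of the 10 were 72.9 to 97.3 CPM in WT and 51.6 to 83.1 CPM in the knockout. In bulk RNA a change in the number of cells of a type and a change of RNA per cell cannot be told apart.

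Most ribosomal protein genes lay close to their WT level in the knockout. Of the 83 tested members 7 were called, 3 higher and 4 lower, which is 8.43% of them beside 13.3% of all tested genes. By direction, 3.61% were called higher beside 7.60% of all tested genes, and 4.82% lower beside 5.71%. Among the tested genes with a mean of at least 100 CPM, 20.1% were called, 12.6% higher and 7.48% lower. At an unadjusted p under 0.05 in edgeR's test there were 11 of the 83 members, beside 4622 of the 17325 tested genes. The median log2 change of the members was -0.06, with quartiles of -0.10 and 0.00, and the median of all tested genes was -0.01. A log2 change within 0.25 of 0 was seen in 73 members (88.0%), in 53.4% of all tested genes and in 73.5% of the 2393 tested genes that had a mean of at least 100 CPM. The standard error was small for these well-counted genes, with a median of 0.084 over the members and 0.163 over all tested genes. For 78 of the 83 members the 95% interval lay inside a 1.5-fold change in either direction (0.58 on the log2 scale). The exceptions were Rpl15, Rpl39l, Rpl3l, Rps10 and Rps27rt, the last 3 with low counts.

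**Figure D1:**
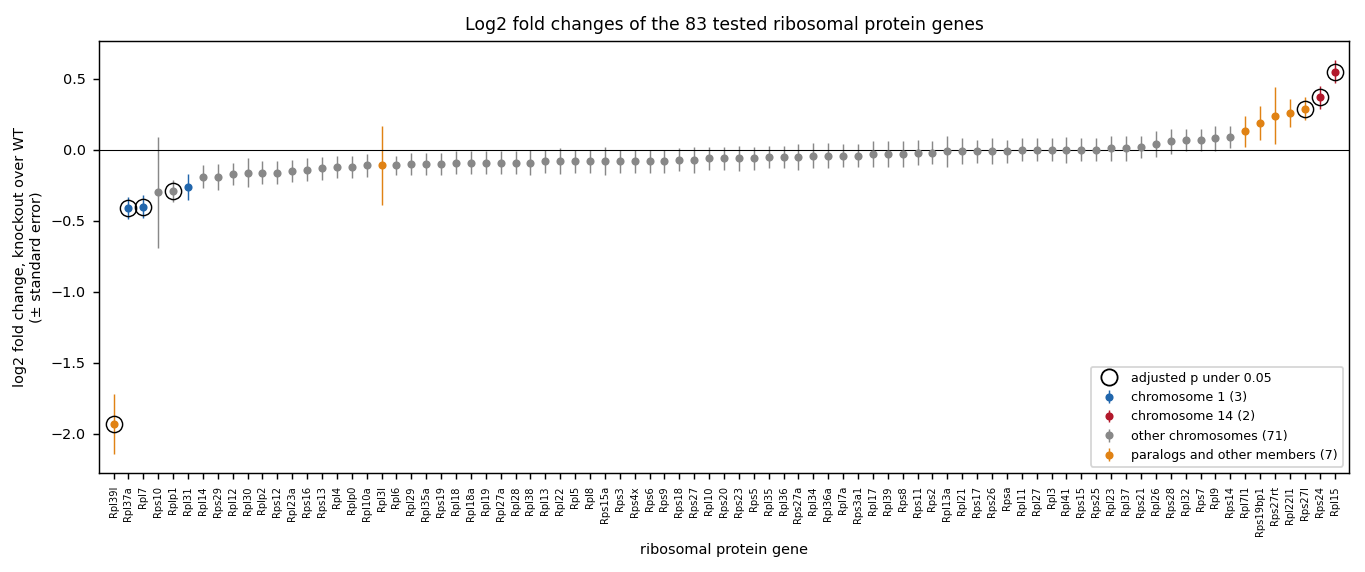
Log2 fold change of each of the 83 tested ribosomal protein genes (y axis, knockout over WT, bars ± standard error), ordered from lowest to highest, coloured by chromosome and with the 7 called genes ringed. Rpl39l at -1.93 stands far below the others, the chromosome 1 genes sit near the low end and Rpl15 and Rps24 of chromosome 14 at the high end.

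The share of called genes was 8.89% in the large subunit and 3.23% in the small subunit, beside 13.3% of all tested genes. Of 45 tested large-subunit genes Rpl15 rose, Rpl7, Rpl37a and Rplp1 fell and 41 were not called, with a median of -0.08. Of 31 tested small-subunit genes Rps24 rose, 0 fell and 30 were not called, with a median of -0.06. In the small subunit edgeR's test gave 2 genes at an unadjusted p under 0.05, and DESeq2 and limma-voom called 1 each. The 5 most counted members, Rpl4, Rps2, Rpsa, Rpl3 and Rpl13, were not called. Rpl4, of the large subunit, had 3108, 3188 and 3350 CPM in WT libraries A, B and C and 3095, 2905 and 2881 CPM in the knockout. Its knockout libraries all lay below its WT libraries, by a narrow margin for library A, and its log2 change of -0.12 (SE 0.08) had an adjusted p of 0.344 in edgeR's test. Rps2, of the small subunit, had 2639, 2481 and 2839 CPM in WT and 2857, 2472 and 2518 CPM in the knockout. These ranges overlapped almost fully, and its log2 change was -0.02. Rpl3 at 0.00, Rpsa at -0.01 and Rpl13 at -0.08 overlapped as well. Rpl5 (-0.08) and Rpl11 (0.00), the MDM2-binding pair, were not called either.

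Per base of exon, Rplp1 was the most counted member, with 3122 CPM per kb in WT, followed by Rpl13 (2729), Rps2 (2299), Rps18 (2183) and Rpl4 (2090). At the other end stood Rpl24 with 1 to 6 counts in a library, Rps10 with 24 to 45 counts and Rpl13a with 929 to 1308 counts. In the annotation, 71.5% of the exon bases of Rpl24, 38.8% of those of Rps10 and 54.9% of those of Rpl13a lie under another gene of the same strand. The overlapping genes had 0 counts in all 6 libraries. The paralog Rpl36al, with 6 to 14 counts, was the fourth member with such an overlap over 20% (24.5%). The levels of these 4 genes in the table may be understated, and whether their reads were dropped as ambiguous was not tested. A further 6 members (Rpl5, Rpl22l1, Rpl23a, Rpl30, Rpl31 and Rps25) share over 20% of their exon bases with a gene on the opposite strand. Processed pseudogenes of ribosomal proteins are near-identical to the mRNA, so reads may be split among copies. The 298 pseudogene rows named after Rpl or Rps genes held between 0.0693% and 0.0856% of a library, and adding their counts to the member they are named after left the same 7 genes called.

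Position in the genome went with the calls. Of the 5 members among the 76 tested canonical genes that lie on chromosomes 1 and 14, 4 were called, and of the 71 on other chromosomes 1 was called, Rplp1. The tested genes of these chromosomes had shifted medians as a whole. The median log2 change of the 1002 tested genes on chromosome 1 was -0.33 (29.6% called) and that of the 622 on chromosome 14 was 0.53 (51.4% called), beside 0.00 (10.8% called) on all others.

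On chromosome 1, Rpl7 and Rpl37a fell and Rpl31 was not called. Rpl7 (ENSMUSG00000043716.13, minus strand of chromosome 1, 16101295 to 16104662 in GRCm38), a large-subunit protein, had 1529, 1571 and 1614 CPM in WT and 1239.6, 1173 and 1169 CPM in the knockout. Every knockout library lay below every WT library. Its mean went from 1572 ± 42.3 CPM to 1194.0 ± 39.6 CPM (SD, n = 3 each), a log2 change of -0.40 (SE 0.08, adjusted p 0.00245 in edgeR's test). Rpl37a (ENSMUSG00000046330.10, plus strand of chromosome 1, 72711290 to 72713813), which binds 28S ribosomal RNA, had 522, 552 and 546 CPM in WT and 412, 428 and 382 CPM in the knockout. The groups were again apart, and the log2 change was -0.41 (SE 0.08, adjusted p 0.00334). Rpl31 (ENSMUSG00000073702.11, plus strand of chromosome 1, 39367842 to 39371911), a protein near the exit of the peptide tunnel, had 748, 771 and 889 CPM in WT and 693, 651 and 664 CPM in the knockout. The groups did not overlap and WT library C stood highest. The log2 change of Rpl31 was -0.26 (95% interval -0.45 to -0.08) with an adjusted p of 0.0587, and it was called in 9 of 19 other settings. The adjusted p was 0.0338 when knockout library A was left out and 0.215 when WT library C was. Its exon bases lie to 28.04% under Tbc1d8 of the opposite strand.

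On chromosome 14, both members rose. Rpl15 (ENSMUSG00000012405.16, minus strand of chromosome 14, 18267823 to 18271391), a large-subunit protein, had 464, 482 and 508 CPM in WT and 699, 711 and 721 CPM in the knockout. The lowest knockout library lay well above the highest WT library. The mean rose from 485 ± 21.7 CPM to 710 ± 11.1 CPM, a log2 change of 0.55 (SE 0.08, adjusted p 0.00025 in edgeR's test). Rps24 (ENSMUSG00000025290.17, plus strand of chromosome 14, 24487125 to 24496959), a small-subunit protein whose human gene is mutated in some families with Diamond-Blackfan anaemia, had 1223, 1282 and 1434 CPM in WT and 1743, 1671 and 1690.4 CPM in the knockout. Its groups were apart as well, with a log2 change of 0.37 (SE 0.08, adjusted p 0.00657). Without WT library A the adjusted p of Rps24 was 0.0529. With each library's median of chromosomes 1 and 14 removed, none of these 5 genes was called. Rpl15 then had a log2 change of 0.01 (adjusted p 0.969), Rpl7 one of -0.08 (0.56), Rpl37a one of -0.09 (0.551), Rpl31 one of 0.05 (0.77) and Rps24 one of -0.17 (0.23). The last 2 changed sign.

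**Figure D2:**
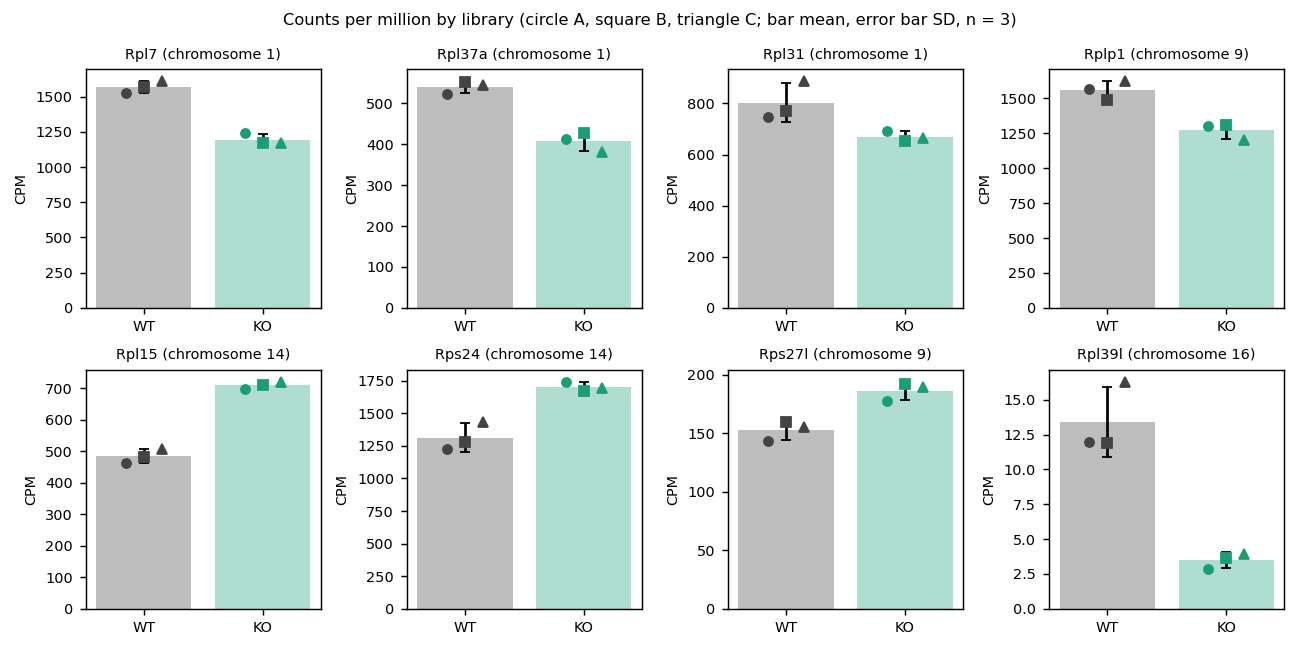
CPM (y axes, from 0) of the 7 called members and Rpl31 in each library (circle A, square B, triangle C), with bars at the mean and error bars of 1 SD (n = 3 per genotype). In all 8 panels the WT and knockout points do not overlap, with Rpl15 at 464 to 508 against 699 to 721 CPM and Rpl39l at 11.9 to 16.3 against 2.87 to 3.94 CPM.

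The start sites of 4 members of chromosomes 1 and 14 are shown here because 3 of them were called, and their windows can be set beside those of the whole family. The stretches are from RefSeq on GRCm38.p6, 80 bases before to 30 after the start, written 5′ to 3′ on the gene's strand. Capitals mark runs of at least 8 pyrimidines (C or T) and the letters CCGGAA or their reverse complement TTCCGG, which are the core of sites bound by ETS family factors. They cover chr1:39367771-39367880 (plus strand), chr1:72711180-72711289 (plus), chr14:18270957-18271066 (minus) and chr14:24490598-24490707 (plus).
Rpl31: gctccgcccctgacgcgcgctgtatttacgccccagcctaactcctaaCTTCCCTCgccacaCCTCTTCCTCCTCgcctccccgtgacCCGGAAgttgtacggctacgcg
Rpl37a: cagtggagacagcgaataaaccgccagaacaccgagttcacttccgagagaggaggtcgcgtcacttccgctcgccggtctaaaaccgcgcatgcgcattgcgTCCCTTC
Rpl15: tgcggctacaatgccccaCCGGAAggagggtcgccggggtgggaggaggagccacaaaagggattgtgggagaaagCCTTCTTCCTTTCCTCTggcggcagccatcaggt
Rps24: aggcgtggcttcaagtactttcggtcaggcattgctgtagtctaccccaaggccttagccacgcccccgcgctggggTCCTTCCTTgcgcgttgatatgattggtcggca
RefSeq gives 2 windows for Rps24, and the first is shown. Its start lies inside the span that GENCODE gives the gene. The longest run within 50 bases of the start was 12 bases in this window, past the printed stretch, and 19 bases in the window not shown. The run at the end of the Rpl37a stretch goes on past the last printed base and is 13 bases long. RefSeq promoter windows were matched for 65 members, 77 windows in all. A pyrimidine run of at least 8 bases within 50 bases of the start was found in 76.6% of the members' windows and in 35.7% of all 32851 windows of the same length. CCGGAA, searched on both strands of the 300 bases from 250 before the start to 50 after it, was found in 48.1% of the members' windows and in 14.9% of all windows. The members' windows were also richer in G and C, with a median of 58.3% beside 52.7%. A match describes the letters in the window and is not a measured site.

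Among the canonical members outside chromosomes 1 and 14, Rplp1 was the one called gene. Rplp1 (ENSMUSG00000007892.8, minus strand of chromosome 9, 61913284 to 61914542) encodes an acidic protein of the stalk, the arm of the large subunit that recruits elongation factors. It had 1565, 1485 and 1623 CPM in WT and 1302, 1312 and 1201 CPM in the knockout. All knockout libraries lay below all WT libraries, and the mean fell from 1558 ± 69.3 CPM to 1272 ± 61.6 CPM (log2 change -0.29, SE 0.08, adjusted p 0.0218 in edgeR's test). The call depended on single libraries, since the adjusted p was 0.0848 without WT library A, 0.0631 without WT library C and 0.11 without knockout library C. Its partners in the stalk were not called. Rplp2 had 695, 667 and 771 CPM in WT and 641, 655 and 608 CPM in the knockout (log2 change -0.16, adjusted p 0.225), without overlap. Rplp0, which anchors both to the ribosome, had 1778, 1851 and 2046 CPM in WT and 1806, 1730.2 and 1700.0 CPM in the knockout (log2 change -0.12, adjusted p 0.393), with overlap. For 70 of the 71 genes on other chromosomes, all but Rps10, the 95% interval lay inside a 1.5-fold change, and the bounds over these 70 reached from -0.46 to 0.27.

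Small shifts of these 71 genes pointed mostly down. In 12 of them (16.9%) all knockout libraries lay below all WT libraries, and in 0 of them above. For all tested genes the shares without overlap were 15.0% lower, 15.7% higher and 30.7% in either direction. Negative log2 changes were found for 60 of the 71 and positive ones for 11. Of all 15701 tested genes outside chromosomes 1 and 14, 7932 had negative and 7769 positive log2 changes. The median rested on WT library C. That library was the highest of the 6 for 60 of the 76 tested canonical genes, and without it the median log2 change of the members was 0.01 in place of -0.06.

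The same library set the summed level. Ribosomal protein genes took 7.41%, 7.39% and 8.07% of the counts in WT libraries A, B and C and 7.51%, 6.99% and 6.97% in the knockout libraries. WT library C was the highest, and knockout library A lay between it and the other WT libraries, so the genotypes overlapped. The mean share was 7.62 ± 0.391% in WT and 7.16 ± 0.305% in the knockout (SD, n = 3 each), a difference of -0.465 percentage points. Without WT library C the difference in the ribosomal protein share of library counts was -0.239 percentage points. The median deviation of the 76 canonical genes from their WT mean was -0.08, -0.04 and 0.11 on the log2 scale in WT and -0.03, -0.08 and -0.08 in the knockout. Within the knockout, the chromosome 1 genes deviated by a median of -0.34, -0.33 and -0.43 and the chromosome 14 genes by 0.47, 0.45 and 0.47. These deviations had one sign in all 3 knockout libraries and were larger than those between WT libraries.

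**Figure D3:**
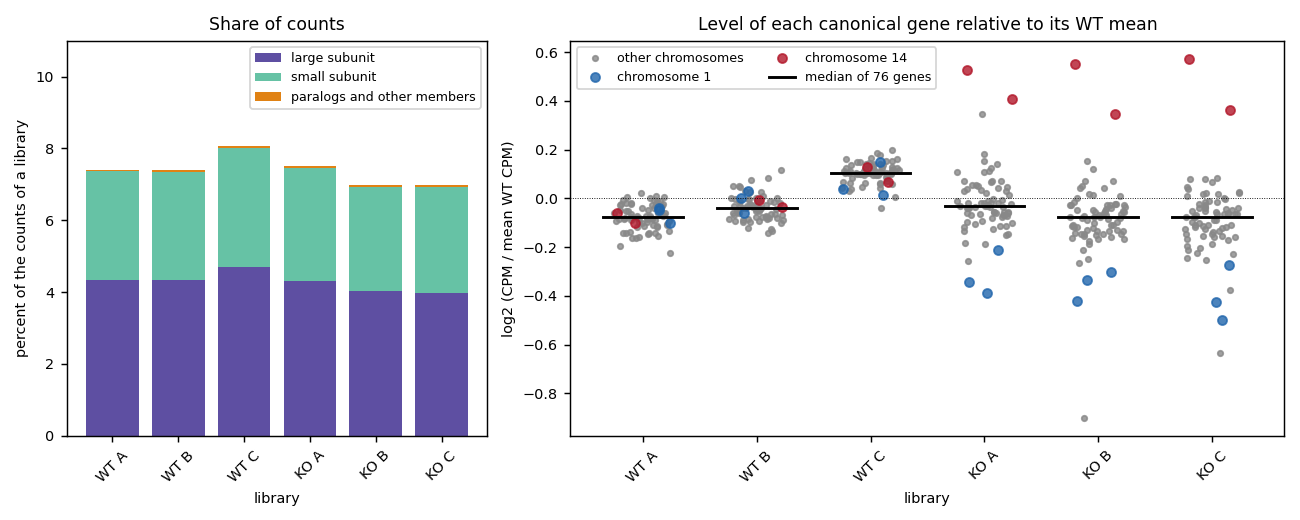
Left, percent of each library's counts (y axis from 0) in large-subunit genes, small-subunit genes and paralogs. Right, log2 ratio of each canonical gene's CPM to its WT mean by library, with black lines at the median of 76 genes. WT C stands highest with a share of 8.07% and a median of 0.11, and the coloured genes have medians of -0.43 to -0.33 (chromosome 1) and 0.45 to 0.47 (chromosome 14) in the knockout libraries.

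Large-subunit and small-subunit genes kept nearly the same proportion in both genotypes. The ratio of large-subunit to small-subunit counts was 1.42, 1.44 and 1.41 in WT and 1.36, 1.39 and 1.35 in the knockout. The knockout values lay below the WT values. Without the members of chromosomes 1 and 14 the ratios were 1.37, 1.39 and 1.36 in WT and 1.34, 1.37 and 1.33 in the knockout, and the ranges overlapped.

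The largest change among the members was that of a paralog. Of 7 tested paralogs and other members Rpl39l fell, Rps27l rose (28.6% called, beside 13.3% of all tested genes and 10.8% of those outside chromosomes 1 and 14) and 5 were not called. None of the 7 lies on chromosome 1 or 14. Rpl39l (ENSMUSG00000039209.12, plus strand of chromosome 16, 10170226 to 10174911) encodes a variant of RPL39, a small protein of the peptide exit tunnel, and is best known from male germ cells. It was counted at 12.0, 11.9 and 16.3 CPM in WT and at 2.87, 3.67 and 3.94 CPM in the knockout, from 236 to 326 counts against 52 to 84. Every knockout library held less than any WT library by a wide margin. The mean fell from 13.4 ± 2.52 CPM to 3.49 ± 0.552 CPM, or 26.1% of WT, with a log2 change of -1.93 (SE 0.21, adjusted p 3.0e-05 in edgeR's test). It was called in all 19 other settings, at log2 changes from -2.02 to -1.76. Rpl39, on the X chromosome, had 469, 543 and 564 CPM in WT and 522, 485 and 534 CPM in the knockout, with overlap (log2 change -0.03, adjusted p 0.868). Per kb of exon, Rpl39l stood at 1.88% of Rpl39 in WT and at 0.501% in the knockout.

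Rps27l (ENSMUSG00000036781.13, plus strand of chromosome 9, 66946086 to 66949516) encodes a near-identical variant of RPS27 and is known as a p53 target in human cells. It had 143, 159.6 and 155 CPM in WT and 177, 192 and 189 CPM in the knockout. The groups did not overlap, and the log2 change was 0.29 (SE 0.08, adjusted p 0.0337 in edgeR's test). When single libraries were left out, this call held in 1 case of 6, without knockout library A. The adjusted p was 0.171 without WT library A, 0.0631 without WT library B, 0.0637 without WT library C, 0.101 without knockout library B and 0.1 without knockout library C. The call was also lost with upper-quartile scaling and with a trend on exon length removed. Rps27 had 464, 501 and 572 CPM in WT and 504, 471 and 490.1 CPM in the knockout, with overlap (log2 change -0.07, adjusted p 0.685). Per kb, Rps27l stood at 23.7% of Rps27 in WT and 30.4% in the knockout.

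The remaining paralogs were not called. Rpl22l1, a paralog of Rpl22 with a role in blood development, had 64.1, 67.3 and 74.0 CPM in WT and 82.2, 88.2 and 74.98 CPM in the knockout. The groups did not overlap, though by 1 CPM only between WT library C and knockout library C, and the log2 change of 0.26 (SE 0.10) had an adjusted p of 0.101. Rpl7l1 had a log2 change of 0.13, Rps19bp1, which encodes a binding protein of RPS19, one of 0.19, Rps27rt one of 0.24 and Rpl3l, a form known from muscle and heart, one of -0.11. All 4 overlapped between genotypes. Rpl3l and Rps27rt had 47 to 83 and 140 to 190 counts in a library, and with standard errors of 0.28 and 0.20 a change of the size seen in Rps27l was not detectable for them.

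The start sites of the called paralogs and of their partners are shown because 1 gene of each pair was called and the other was not, a difference that was not itself tested. They are again from RefSeq on GRCm38.p6, 80 bases before to 30 after the start on the gene's strand, with the same use of capitals. In Rps27 the run and TTCCGG overlap. RefSeq gives 2 windows for Rps27l, and the first is shown. They cover chrX:37085193-37085302 (minus strand), chr16:10170148-10170257 (plus), chr3:90213619-90213728 (minus) and chr9:66946006-66946115 (plus).
Rpl39: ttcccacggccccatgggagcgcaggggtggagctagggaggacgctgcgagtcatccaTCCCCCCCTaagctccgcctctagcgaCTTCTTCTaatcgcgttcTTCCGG
Rpl39l: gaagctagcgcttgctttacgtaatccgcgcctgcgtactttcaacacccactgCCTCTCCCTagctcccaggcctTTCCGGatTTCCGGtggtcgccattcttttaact
Rps27: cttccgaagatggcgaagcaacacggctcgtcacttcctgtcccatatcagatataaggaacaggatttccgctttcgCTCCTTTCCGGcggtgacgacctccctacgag
Rps27l: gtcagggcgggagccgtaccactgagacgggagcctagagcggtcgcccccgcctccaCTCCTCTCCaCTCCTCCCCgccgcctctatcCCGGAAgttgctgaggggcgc
Both members of each pair hold a pyrimidine run of 9 or more bases and CCGGAA letters in their windows. The longest run within 50 bases of the start was 14 bases in Rpl39, past the printed stretch, and 9 bases in Rpl39l. The 300-base window of Rpl39l held CCGGAA letters 4 times against 1 time in that of Rpl39.

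Rack1 and Fau, ribosomal components with names outside the rule, were not called. Rack1, a scaffold on the small subunit, had a log2 change of 0.04 (adjusted p 0.804), and Fau, which encodes RPS30 fused to a ubiquitin-like protein, one of 0.00 (adjusted p 0.982).

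Translation factors and partners, many of them also of the TOP class, were counted in the same way. Of 19 tested genes 2 rose, 1 fell (15.8% called, beside 13.3% of all tested genes) and 16 were not called, with a median of 0.01. Among all tested genes with a mean of at least 100 CPM the called share was 20.1%. Tpt1, a small abundant TOP-class protein from a gene of chromosome 14, rose from 1534 ± 167 CPM to 2305 ± 158 CPM (log2 change 0.59, adjusted p 0.00061 in edgeR's test). Eif4a2, a helicase of the cap-binding complex, rose by 0.43 on the log2 scale (adjusted p 0.0164, but 0.103 without WT library A, 0.0564 without WT library C and 0.0554 without knockout library C). Nap1l1, a histone chaperone, had a log2 change of -0.29 (adjusted p 0.0339) and was called in 1 of the 6 fits that left out a library, the one without WT library A, with an adjusted p of up to 0.147, without WT library B. Of 21 initiation factor genes 1 was called (4.76%, beside 13.3% of all tested genes), and the median was -0.05. The called gene was Eif5b on chromosome 1, which helps join the subunits (log2 change -0.41, adjusted p 0.00343 in edgeR's test). Neither Eif5b (-0.10, adjusted p 0.507) nor Tpt1 (0.04, 0.826) was called with the medians of chromosomes 1 and 14 removed.

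Several genes of ribosome assembly fell. Of 48 tested biogenesis genes 8 fell (16.7%, beside 5.71% of all tested genes) and 1 rose, with a median of -0.10. Of the 8, 4 lie on chromosome 1, where 27.8% of all tested genes were called lower. Of the 42 tested outside chromosomes 1 and 14, 4 were called, all lower. Among all tested genes there, 4.46% were called lower and 10.8% in either direction. Nop58, a core protein of box C/D small nucleolar ribonucleoproteins, fell from 549.8 ± 33.9 CPM to 347 ± 33.4 CPM (log2 change -0.67, adjusted p 0.0002). Ncl, which encodes nucleolin, fell from 3551 ± 195 CPM to 2338 ± 255 CPM (log2 change -0.60, adjusted p 0.00041). Wdr75 (-0.56) and Wdr12 (-0.43) were the other 2 of chromosome 1, and Gnl3, on chromosome 14, rose by 0.40 on the log2 scale. With the chromosome medians removed, Nop58 alone of these 5 was called (-0.35, adjusted p 0.0197). The other 4 that fell, Nop56, Nhp2, Heatr1 and Nolc1, lie elsewhere, were named after their values were seen, and had log2 changes from -0.40 to -0.30 with adjusted p-values from 0.0125 to 0.0486. Of 9 genes for chaperones and importers of ribosomal proteins 3 were called (33.3%, beside 13.3% of all tested genes), all on chromosomes 1 and 14. Ipo9 (chromosome 1, -0.34) fell and Ipo4 (0.73) and Ipo5 (0.41), both on chromosome 14, rose. With the chromosome medians removed none of the 3 was called. Ipo9 was then at -0.03 (adjusted p 0.881), Ipo4 at 0.19 (0.578) and Ipo5 at -0.13 (0.384). Of the exon bases of Ipo4, 60.1% lie under Gm49378 of the same strand, and what this does to its counts was not tested. The call of Ipo4 was lost without WT library A (adjusted p 0.0698), WT library B (0.085) and knockout library B (0.084), and that of Ipo9 without WT library B (0.0511) and knockout library C (0.0528).

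Several noncoding genes that host small nucleolar RNAs in their introns fell in the knockout, and many such hosts are known for spliced transcripts that begin with a TOP motif. Of 13 listed, 11 were tested, and 6 fell (54.5%, beside 5.71% of all tested genes) and 0 rose, with a median log2 change of -0.43. Snhg1 had 152, 196 and 164 CPM in WT and 104, 129 and 94.2 CPM in the knockout, without overlap (log2 change -0.64, adjusted p 0.00246 in edgeR's test). Snhg5 (-0.64) and Snhg12 (-0.59), which lie on chromosomes 9 and 4, were apart in the same direction. Of the exon bases of Snhg12, 23.5% lie under Snora61 of the same strand. Gas5 (-0.49) lies on chromosome 1, and Snhg17 (-0.43) and Snhg8 (-0.44) complete the list. Gas5 was not called with the medians of chromosomes 1 and 14 removed (-0.18, adjusted p 0.311). The call of Snhg17 was lost without WT library A (adjusted p 0.129), WT library B (0.056) and knockout library C (0.099). The count of called hosts was 4 to 7 when single libraries were left out. Protein-coding TOP genes and these hosts were not compared in a test.

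The mitochondrial ribosomal proteins, encoded by nuclear genes of their own, served for comparison. Of 77 tested genes 3 rose and 2 fell (6.49% called, beside 13.3% of all tested genes), with a median of 0.03. Mrps16 (0.74), Mrpl57 (0.65) and Mrpl52 (0.62), which rose, lie on chromosome 14. Mrpl15 (-0.49) and Mrps9 (-0.33), which fell, lie on chromosome 1. None of these 5 genes was called with the medians of chromosomes 1 and 14 removed. Of the 69 on other chromosomes 0 were called by edgeR's test, beside 10.8% of all tested genes there. An unadjusted p under 0.05 was found for 9 of all 77, beside 4622 of the 17325 tested genes. DESeq2 and limma-voom each called 5 of the 77. The call of Mrps9 was lost without WT library A (adjusted p 0.13), WT library B (0.177), knockout library B (0.11) and knockout library C (0.192).

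**Figure D4:**
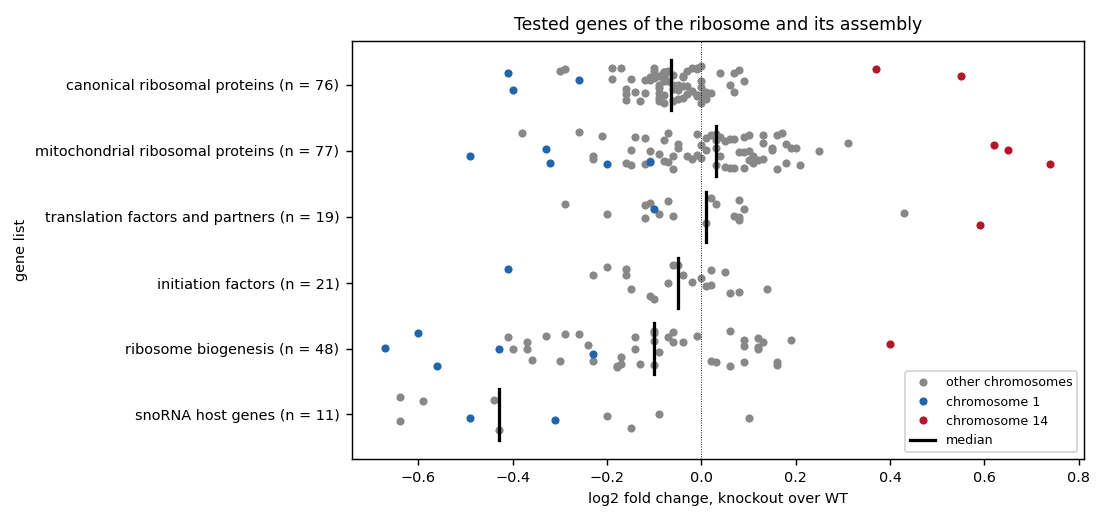
Log2 fold change (x axis, knockout over WT) of each tested gene in 6 lists, with genes of chromosomes 1 and 14 coloured and black lines at the medians. Canonical ribosomal proteins cluster near their median of -0.07 and mitochondrial ones near 0.03, and the snoRNA hosts lie lowest with a median of -0.43.

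Of 20 genes that regulate ribosomal protein synthesis or respond to its failure, 2 were called, 1 higher and 1 lower. This called share was below the 13.3% of all tested genes. Mdm2 rose from 127 ± 10.8 CPM to 192 ± 28.6 CPM (log2 change 0.60, adjusted p 0.00188 in edgeR's test), with 115, 134 and 132 CPM in WT and 185, 168 and 224 CPM in the knockout. Its groups did not overlap, and it was called in all 19 other settings. Mdm4, its relative on chromosome 1, had a log2 change of -0.38 (adjusted p 0.0225), and the call was lost without WT library B (0.137), knockout library B (0.0965) and knockout library C (0.121). It was also lost with the medians of chromosomes 1 and 14 removed, at a log2 change of -0.06 (adjusted p 0.777). Larp1, the TOP-binding repressor, had 521, 504 and 494 CPM in WT and 407, 461 and 402 CPM in the knockout. Its groups were apart, with a log2 change of -0.26 and an adjusted p of 0.054. Myc, a driver of ribosomal protein transcription, was counted at 7.11, 6.37 and 8.90 CPM in WT and at 7.30, 13.5 and 17.0 CPM in the knockout. Knockout library A lay within the WT range, and the log2 change of 0.76 had an adjusted p of 0.0657. Mtor (-0.10), Rptor (0.06) and Rps6kb1 (-0.21) were not called.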

How the data were processed

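RNA was sequenced from 3 WT and 3 Cdh1 knockout V6.5 libraries made with a directional kit, per the labels. The authors deposited raw counts per gene, whole numbers with no normalization, beside exon coordinates and lengths. The submitters' processing notes name cutadapt 2.10, STAR 2.7.5b, featureCounts 2.0.1 and the build GRCm38. Their settings, the annotation release, the strand setting and the treatment of multi-mapping reads are not given in the sources used here. Multi-mapping matters for these genes because of their pseudogenes.

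Of 55401 row identifiers, 54349 matched GENCODE M21 with their version and 55141 received a symbol, which decided membership. Genes were kept by filterByExpr (smallest count 10, smallest total 15) and library sizes scaled by TMM. A quasi-likelihood model (edgeR 4.0.16 in R 4.3.3) with genotype as its only term was fitted to all 6 libraries and 17325 genes, with two-sided tests and Benjamini-Hochberg adjustment over all of them. Standard errors and 95% intervals were derived from the F statistic. Lists are described by their counts of called genes and their medians and were not tested as sets. Members, lists and tests were chosen with earlier results of these data known. Named genes are the called members, the 3 highest and 3 lowest, the 5 most counted, those on chromosomes 1 and 14, the tested paralogs, Fau, Rack1, Cdh1 and at most 5 called genes per other list by adjusted p. A result for 1 further gene of this rule is left out of the text. Any other gene was named for its role or after its values were seen.

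Low counts were mostly even (78.1% to 83.1% of values from 1 to 10, against 50.2% to 52.1% over 1000), so both mates of a pair may have been counted, and levels under 6 counts (0.262 to 0.332 CPM) were not read. Intervals cover the spread between libraries. The procedure was tested on simulated data, where it recovered part of the changed genes, more of the larger changes, and made false calls somewhat above the nominal rate, which bears on calls near the threshold. Alternatives were other scalings, filters, DESeq2 1.42.0, limma-voom (limma 3.58.1), a block on the replicate letter, leaving out each library, counts divided by 2, pseudogene counts added, removal of the medians of chromosomes 1 and 14, of a trend on exon length, and an adjusted p of 0.01. The list of snoRNA hosts was put through these after its values were seen.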

Additional observations from a re-analysis of the deposited data

How the results depend on the processing

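Of the list counts, medians and shares, 143 alternative values stayed near the main value and 13 moved. Near means within 1.5 times for counts, and within the SD between libraries of a genotype for medians and shares. A shift of a median or share smaller than that spread was therefore counted as near. With each library's median of chromosomes 1 and 14 removed, 1 member was called higher and 2 lower (Rps27l, and Rpl39l and Rplp1), and 3 called genes changed sign, Rps24 to -0.17, Gnl3 to -0.15 and Ipo5 to -0.13, as did Rpl31, not called, to 0.05. With a trend on exon length removed, 7 members were called lower, because Rpl14, Rpl31 and Rplp2 were added, and Rps27l was no longer called higher. Single left-out libraries gave 1 to 3 members called higher and 3 to 5 lower (1 higher without WT library A), 0 to 1 small-subunit genes (0 without WT library A), 1 to 2 paralogs (2 without knockout library A), 1 to 2 translation factors beside 3 (1 without WT library C or knockout library C), 5 to 9 biogenesis genes (5 without WT library A) and members' medians from -0.10 to 0.01. Over all genes, 1374 were called without WT library A, 1470 without WT library B and 2784 without knockout library A, beside 2307. With the replicate letter as a block, 2686 genes and 8 members were called, Rpl31 being added (-0.26, adjusted p 0.047). Deviations of same-letter libraries had correlations of 0.165 for A, -0.149 for B and 0.396 for C over 11371 genes, not all above 0.1, and WT library B and knockout libraries A and B did not correlate best with their own letter, so the letters were not taken as pairs. Rpl15, Rpl7, Rpl37a and Rpl39l were called in all 6 fits that left out a library. Rps24, Rplp1 and Rps27l were not. Depth limits Rps10, Rpl3l and Rps27rt, whose standard errors were 0.39, 0.28 and 0.20, and leaves Rpl24 and Rpl36al untested.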

Other observations

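Rpl10l, a retrogene copy of Rpl10 on chromosome 12 that the naming rule leaves out, was looked at after its values were seen. It had 20.4, 19.4 and 25.4 CPM in WT and 11.7, 13.2 and 14.8 CPM in the knockout. The groups did not overlap, and the mean fell from 21.7 ± 3.21 CPM to 13.2 ± 1.56 CPM (log2 change -0.71, SE 0.15, adjusted p 0.00503 in edgeR's quasi-likelihood test). Like Rpl39l, Rpl10l is best known from male germ cells, and its parent Rpl10 on the X chromosome had 816, 897 and 885 CPM in WT and 886, 821 and 793 CPM in the knockout, with overlap (log2 change -0.06, adjusted p 0.721). Rps4l, another copy outside the rule, had a log2 change of -0.10 and an adjusted p of 0.65. Reads of such copies can be shared with the parent gene, and how the counting treated them was not tested.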
